A study of Mus musculus with 116 samples.

Results

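The genes described here were 8 genes of cholesterol synthesis and its control, chosen by name from the 40202 gene symbols in the count files. They were Hmgcs1, Idi1 and Fdps of the mevalonate arm, Fdft1, Sqle and Cyp51 of the sterol arm, and the regulators Insig1 and Srebf2. None of the 8 is an uptake gene, so uptake is described from a separate list. All 8 symbols were in the files, and 7 had counts.

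The libraries came from 2 cultured mouse lines. C10 is labelled as alveolar type II epithelial cells and SVEC as endothelial cells. Both were grown under standard culture with no treatment. The material was handled with nanoSPLITS, a method that divides the lysate of very few cells so that RNA and protein can both be measured, and only RNA was analysed here. The groups were 48 C10 single cells, 48 SVEC single cells, and a C10 input series of 8 libraries of 1 cell, 6 of 3 cells and 6 of 10 cells. No genotype, allele or agent is given for any group, and each line stands for 1 culture as far as the labels say.

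Cells make cholesterol from acetyl-CoA. The mevalonate arm builds isoprene units and joins them into farnesyl diphosphate, and the sterol arm couples farnesyl diphosphate into squalene, oxidises and closes it, and trims the ring system to cholesterol. Srebf2 encodes SREBP2, the transcription factor that switches these enzymes on when sterol in the endoplasmic reticulum is low, and Insig1 encodes the membrane protein that holds SREBP2 back when sterol is plentiful. In the lung, type II cells place cholesterol in surfactant beside phospholipid.

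Single-cell libraries were shallow and uneven. Leaving aside 2 C10 libraries under 1000 counts, 46 C10 cells had a median of 1881700 gene counts and 48 SVEC cells a median of 434945, with the lowest at 5122. The 10-cell libraries held 8313314 to 14778988 counts. In the 1-cell input series, replicate 1 stood apart: 95.1% of its reads were not aligned and 538 genes had a count. Many defining markers of the labelled cell types had no counts. In C10 single cells 7 of 13 alveolar epithelial markers were at 0 in every library, including the surfactant genes Sftpc, Sftpb, Sftpa1 and Sftpd, and in SVEC single cells 6 of 13 endothelial markers were, including Kdr, Tie1, Vwf and Cldn5. Summed levels of 6 fibroblast markers had a median of 2392 CPM (gene counts scaled to a library total of 1000000) in C10 and 1217 CPM in SVEC. The part of these marker differences in the results below was not tested.

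SREBP2 is known to bind sterol regulatory elements in promoters, and the promoters at hand were searched for such letters. Whether a match relates to the level of a gene, or to genes being high or low together, was not tested. RefSeq promoters (assembly GRCm38.p6, windows of 300 bases around the start) were at hand for Hmgcs1, Idi1, Cyp51, Insig1 and Srebf2. The sterol regulatory element core was searched as TCACCCCA and, with any base at 1 position, as TCACCNCA, on both strands. These letters were chosen with the sequences in view. Each stretch below runs 5′ to 3′ on the gene's strand, lies upstream of the start, and has the match in capitals.
Hmgcs1 (chr13:119690154-119690241, + strand): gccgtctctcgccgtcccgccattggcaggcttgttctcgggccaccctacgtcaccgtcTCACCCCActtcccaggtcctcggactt
Cyp51 (chr5:4104758-4104845, - strand): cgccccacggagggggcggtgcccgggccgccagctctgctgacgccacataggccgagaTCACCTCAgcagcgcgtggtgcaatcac
Srebf2 (chr15:82147047-82147134, + strand): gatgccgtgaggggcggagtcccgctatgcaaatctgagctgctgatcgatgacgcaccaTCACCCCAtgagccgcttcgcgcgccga

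The match began 137 bases upstream of the start in Hmgcs1, 88 in Cyp51 and 162 in Srebf2. TCACCCCA was present in 1.56% and TCACCNCA in 4.42% of 32851 promoters of the same 300 bases. The Idi1 and Insig1 windows held no such letters. CCAAT, a box bound by the factor NF-Y, was in all 5 windows on either strand, against 37.4% of all promoters, with 4 matches in Hmgcs1 and 2 in Idi1. A match describes letters in the window only.

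The first comparison set C10 against SVEC single cells, the difference between lines that the design allows. Each sample was 1 cell and no separate cultures are named, so a line was taken as 1 sample, values are descriptions and no p-value is given. Fdps, Sqle and Cyp51 were at least 2-fold higher in C10 by the ratio of mean CPM, and no gene of the 7 was at least 2-fold lower. Among all 9303 genes with a count in at least 25% of the cells of either line, 19.6% were that much higher in C10 and 18.6% that much lower. The median log2 ratio of the 7 genes was 0.85 and that of all genes 0.02. The number of genes past 2-fold depended on scaling. After TMM scaling 5 of 7 passed, beside 27.5% of all genes higher and 12.1% lower. That scaling moved the median of all genes to 0.36 on the log2 scale, and 2 of 7 passed relative to that median. With libraries drawn to 100000 counts 2 of 7 passed, without Sqle.

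In the mevalonate arm, Hmgcs1, the synthase that makes HMG-CoA, ranged in C10 from 0 through a median of 37.6 to 403 CPM, and in SVEC from 0 through a median of 0 to 545 CPM. Means were 74.8 CPM ± 97.9 (SD, n = 46) and 41.6 CPM ± 106 (SD, n = 48), a log2 ratio of 0.85. The ratio was 1.28 without SVEC replicate 34, which had the highest value. The highest cell was an SVEC cell, and the lines overlapped throughout.

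Idi1, the isomerase that interconverts the isoprene units, had a C10 median of 48.6 CPM and a highest value of 636 CPM, against an SVEC median of 0 and a highest value of 1049 CPM, with a lowest value of 0 in both. Mean levels were 99.1 CPM ± 142 (SD, n = 46) in C10 and 78.2 CPM ± 180 (SD, n = 48) in SVEC, a log2 ratio of 0.34. This was the closest pair of means with C10 above SVEC, and the largest Idi1 value of all single cells was an SVEC cell.

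Fdps, farnesyl diphosphate synthase, ranged in C10 from 0 through a median of 134 to 1191 CPM and in SVEC from 0 through a median of 0 to 881 CPM. Its mean was 208 CPM ± 238 (SD, n = 46) in C10 and 71.9 CPM ± 170 (SD, n = 48) in SVEC, a log2 ratio of 1.53. Over the 2208 pairs of a C10 with an SVEC cell, the C10 cell was higher in 72.7%, the SVEC cell in 16.8%, and the rest were tied. The C10 cell was thus the higher in most pairs, although the ranges overlapped.

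At the entry of the sterol arm, Fdft1, squalene synthase, was the gene with the lower mean in C10. C10 cells ranged from 0 through a median of 78.9 to 373 CPM and SVEC cells from 0 through a median of 26.4 to 696 CPM. The means were 82.3 CPM ± 87.0 (SD, n = 46) in C10 and 105 CPM ± 167 (SD, n = 48) in SVEC, a log2 ratio of -0.35. The log2 ratio was 0.12 with counts summed over cells, 0.27 with TMM scaling and 1.58 between the medians, and C10 was the higher cell in 49.3% of pairs against 38.8%. The direction of Fdft1 between the lines thus changed with the summary used. In RefSeq 2.12% of the Fdft1 span overlaps Ctsb, an abundant cathepsin gene, and whether reads were shared was not tested.

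Sqle, squalene epoxidase, ranged from 0 through a median of 158 to 1367 CPM in C10 and from 0 through a median of 0 to 1937 CPM in SVEC. Means were 251 CPM ± 294 (SD, n = 46) and 121 CPM ± 336 (SD, n = 48), a log2 ratio of 1.06. C10 was higher in 73.1% of pairs and SVEC in 20.3%. The ratio rested on single cells at the margin of 2-fold: it was 0.91 without C10 replicate 35 and 1.62 without SVEC replicate 14. It was 0.75 with counts summed over cells, 0.87 in libraries with at least 100000 counts and 0.95 with libraries drawn to that depth. That SVEC cell also had the highest Idi1 and Fdps values of its line, while Hmgcs1, Cyp51 and Srebf2 were at 0 in it.

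Cyp51, the lanosterol demethylase, ranged from 0 through a median of 148 to 894 CPM in C10 and from 0 through a median of 0 to 491 CPM in SVEC. Means were 193 CPM ± 228 (SD, n = 46) and 67.0 CPM ± 133 (SD, n = 48), a log2 ratio of 1.52. C10 was higher in 60.01% of pairs and SVEC in 19.7%. Leaving out any single cell kept the log2 ratio between 1.40 and 1.73.

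Of the regulators, Srebf2 had counts. C10 cells ranged from 0 through a median of 28.1 to 430.1 CPM and SVEC cells from 0 through a median of 0 to 230.4 CPM. Means were 47.5 CPM ± 80.9 (SD, n = 46) and 30.4 CPM ± 57.9 (SD, n = 48), a log2 ratio of 0.64. With counts summed over cells the log2 ratio was 0.08.

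**Figure D1:**
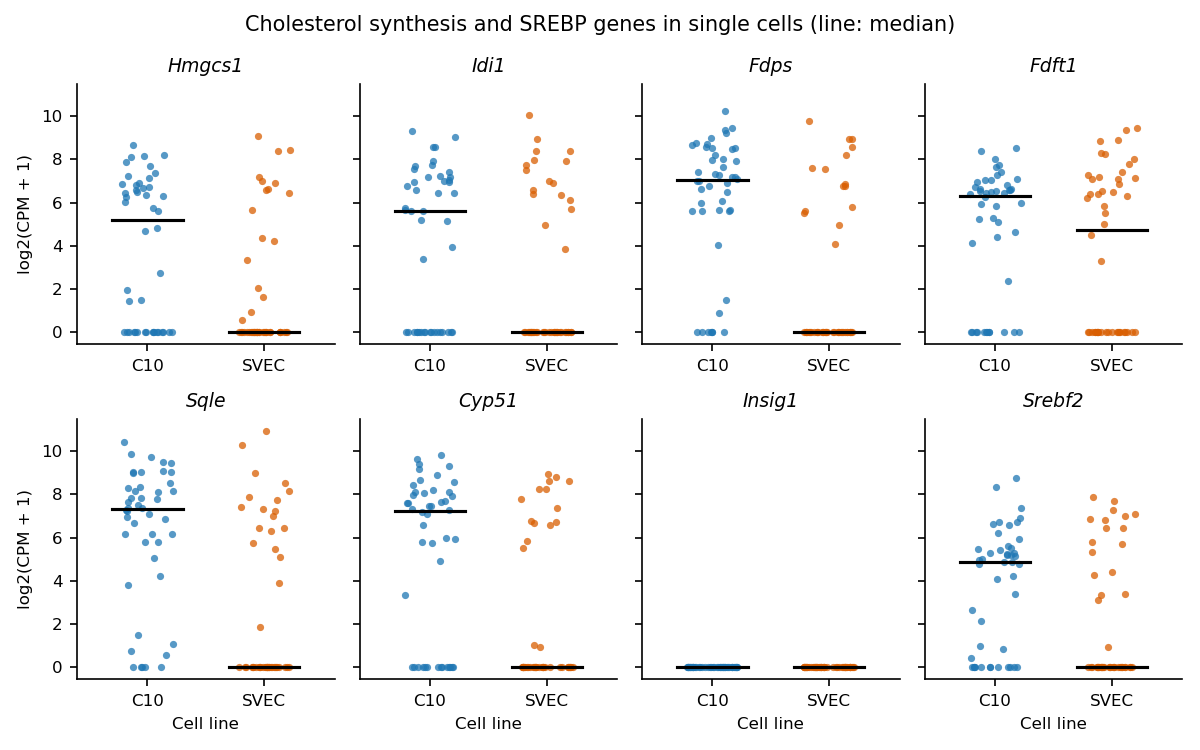
Each point is a single cell of the C10 or SVEC line, the vertical axis is log2(CPM + 1), and the black line is the median of the cells. The SVEC median is 0 for every gene except Fdft1, C10 medians lie above 0 for every gene except Insig1, and upper levels overlap between the lines.

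Insig1 had 0 counts in all 116 libraries, out of 341908703 gene counts. Because of the overlap described next, no upper limit on its level is drawn from these zeros. In RefSeq the whole span of Insig1 lies inside the long non-coding gene Gm35223, which had 776 counts in 5 libraries. Of 917 protein-coding genes lying wholly inside another gene in that annotation, 96.1% were at 0 in every library. The share was 33.9% for 13017 genes with no overlap and 9.57% for 7778 partly overlapped genes. Whether reads of Insig1 were left uncounted because of its overlap was not tested, and Insig1 enters no comparison.

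The lines differed mainly in how many cells had a count. Fdps had a count in 39 of 46 C10 cells (84.8%, exact binomial 95% interval 71.1 to 93.7%) and 15 of 48 SVEC cells (31.2%, 18.7 to 46.2%). Sqle had a count in 41 of 46 and 19 of 48 cells, Cyp51 in 32 and 16, Srebf2 in 34 and 18, Hmgcs1 in 29 and 17, and Idi1 in 28 and 17. Fdft1 was closest, with 34 of 46 against 26 of 48. Intervals here cover the sampling of cells within each line only, not differences between cultures.

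Depth differed between the lines, so libraries were also drawn down to 100000 counts, which left 45 C10 and 42 SVEC cells. Fdps was then counted in 80.0% of C10 cells (exact binomial 95% interval 65.4 to 90.4%) and 35.7% of SVEC cells (21.6 to 52.0%). For Sqle the shares were 80.0% and 42.9%, for Cyp51 66.7% and 33.3%, and for Fdft1 75.6% and 57.1%. The median gap over the 7 genes was 28.7 percentage points, against 7.94 points over all 9303 genes. Those 9303 genes were not matched to the 7 in share, and a gene counted in nearly all or few cells of both lines has little room for a gap. Shares were higher in C10 for all 7 genes at equal depth.

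**Figure D2:**
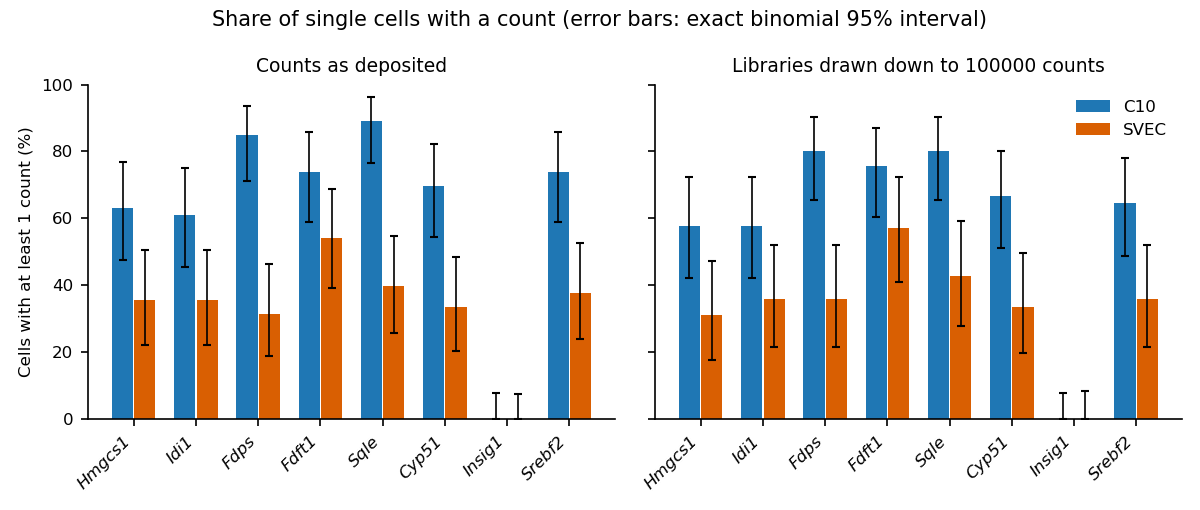
Bars give the percentage of C10 and SVEC single cells with at least 1 count of each gene, from deposited counts on the left and after drawing to 100000 counts on the right, and error bars are exact binomial 95% intervals. At equal depth the Fdps share is 80.0% in C10 and 35.7% in SVEC, and Insig1 is at 0 in both.

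Among cells with a count, median levels differed less than the means did for Hmgcs1, Idi1, Fdps, Sqle and Cyp51, and more for Fdft1 and Srebf2. Median CPM in those cells was 152 in C10 and 114 in SVEC for Fdps, and 184 and 151 for Sqle. It was 96.4 and 85.9 for Hmgcs1, and 127 in each line for Idi1. Cyp51 stood at 201 and 134. The order was the other way for Fdft1, at 93.7 and 137, and for Srebf2, at 36.3 and 69.3. A level of 3 counts corresponded to a median of 1.60 CPM in C10 and 6.95 CPM in SVEC libraries, and the part of depth in these medians was not tested.

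Counted together, a C10 cell had a median of 6 of the 7 genes (range 1 to 7) and an SVEC cell a median of 2 (range 0 to 7). All 7 were counted in 15 of 46 C10 cells and 2 of 48 SVEC cells. None was counted in 0 C10 cells and 11 SVEC cells. At 100000 counts the medians were 5 and 2. The summed level of the 7 genes was 956 CPM ± 808 (SD, n = 46) in C10 and 515 CPM ± 704 (SD, n = 48) in SVEC. The number of these genes per cell also followed the number of all genes detected, with a Spearman rho of 0.43 over C10 cells and 0.65 over SVEC cells, given as a description of cells that share depth and library quality.

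Per kilobase of exon, which allows levels of different genes to be set side by side, Fdps led in C10 at a mean of 143 CPM per kb ± 164 (SD, n = 46). Sqle followed at 91.1 ± 107, Cyp51 at 49.0 ± 57.9 and Idi1 at 32.7 ± 46.9. Fdft1 at 22.3 ± 23.5 and Hmgcs1 at 21.5 ± 28.1 were level, and Srebf2 was lowest at 9.35 ± 15.9. In SVEC the order was Fdps at 49.5 CPM per kb, Sqle at 43.7, Fdft1 at 28.3, Idi1 at 25.8, Cyp51 at 17.1, Hmgcs1 at 11.9 and Srebf2 at 6.00. Neighbours in either order did not differ beyond the spread of the cells. Cyp51 had rank 3 in C10 and rank 5 in SVEC, Fdft1 had the reverse, and the other 5 genes had the same rank in both.

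Across C10 cells the enzyme genes were high or low together. At 100000 counts per cell, the 21 pairs of the 7 genes had a median Spearman rho of 0.38 over 45 cells (range -0.04 to 0.65), and 20 of 21 were above 0. All pairs of 1592 genes counted in a like share of cells had a median of 0.02, and 55.5% were above 0. The highest pair was Idi1 with Cyp51 at 0.65, followed by Idi1 with Fdps at 0.58 and Fdps with Cyp51 at 0.54. These are descriptions over cells that share depth and capture, not tests.

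Srebf2 stood aside from the enzymes in C10. Its rho with the mean of the other genes was 0.09, while the 6 enzymes had 0.71 for Cyp51, 0.66 for Idi1, 0.60 for Fdps, 0.47 for Sqle, 0.44 for Hmgcs1 and 0.41 for Fdft1. In SVEC the 21 pairs had a median of 0.21 over 42 cells (range -0.09 to 0.40), against 0.08 for all pairs of 2810 genes of like share. There the rho of a gene with the mean of the others lay between 0.18 for Fdft1 and 0.45 for Sqle, with Srebf2 at 0.33. The mean of the 7 genes itself had a rho of 0.35 with the number of genes detected in C10 and 0.34 in SVEC.

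**Figure D3:**
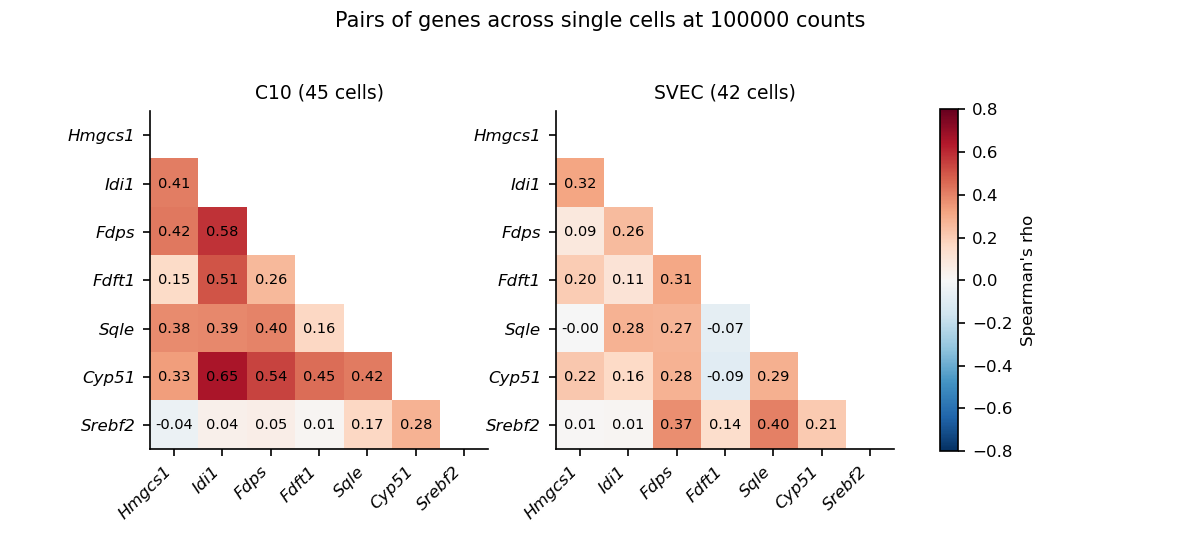
Each square gives Spearman's rho of 2 genes over single cells drawn to 100000 counts, for 45 C10 cells on the left and 42 SVEC cells on the right, with colour from blue (negative) to red (positive). In C10 the squares among Idi1, Fdps and Cyp51 are the darkest, at 0.54 to 0.65, and the Srebf2 row is pale.

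The gene whose pattern over C10 cells was most like the mean of the 7 was Msmo1, another enzyme of the sterol arm, with a rho of 0.76 among 3885 genes ranked over 45 cells. Scd2, a fatty acid desaturase, was second at 0.63, and Tor1a at 0.59, Vars at 0.55 and Khdrbs1 at 0.55 followed. In SVEC the 5 most alike among 2872 genes over 42 cells were Nop56 at 0.63, Creld2 at 0.55, Top2a at 0.53, Tyms at 0.51 and Spc25 at 0.51. No other gene of the pathway lists was among the 5 in SVEC, where Scd2 had 0.03.

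The rest of the pathway was read from lists of its neighbours. Of 15 other cholesterol synthesis enzymes, 13 passed the filter, 4 were at least 2-fold higher in C10 and 2 at least 2-fold higher in SVEC, with a median log2 ratio of 0.47. Msmo1 had a log2 ratio of 1.65 and the sterol dehydrogenase gene Nsdhl 1.17. Also past 2-fold, and named after their values were seen, were the ketosteroid reductase gene Hsd17b7 at 1.16 and, on the SVEC side, 2 genes. These were the phosphomevalonate kinase gene Pmvk at -2.05 and the sterol reductase gene Lbr at -1.12. Medians of Hsd17b7 and Pmvk were 0 in both lines. Pmvk had a count in 20 C10 and 22 SVEC cells. For Lbr the mean alone was higher in SVEC: its median was 7.35 CPM in C10 and 0 in SVEC, and 27 C10 and 23 SVEC cells had a count.

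Of 8 genes that control SREBP, 6 passed the filter and none was 2-fold different, with a median log2 ratio of -0.31. Scap, the SREBP escort protein gene, had a log2 ratio of -0.27 and Srebf1, which encodes the relative that drives fatty acid synthesis, -0.94. Insig2, the relative of Insig1, was counted in 38 of 46 C10 and 28 of 48 SVEC cells, while its mean was 97.1 CPM ± 97.3 (SD, n = 46) in C10 and 178 CPM ± 262 (SD, n = 48) in SVEC, a log2 ratio of -0.87.

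For uptake and intracellular transport, 9 of 12 genes passed, 1 was at least 2-fold higher in C10 and 1 in SVEC, and the median log2 ratio was 0.01. Lrp1, an endocytic receptor gene, was lower in C10, with a log2 ratio of -1.60. The gene past 2-fold on the C10 side was Npc1, a lysosomal cholesterol transporter, at 1.42, named after its values were seen. Npc1 was barely counted: 13 C10 and 6 SVEC cells had a count, and both medians were 0. Its C10 mean was 5.97 CPM and its SVEC mean 2.24 CPM. Both lay under 6.95 CPM, the median level of 3 counts in SVEC libraries.

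Of 11 fatty acid synthesis genes, all 11 passed, 4 were at least 2-fold higher in C10 and none in SVEC, with a median log2 ratio of 0.72. The 4 were Fads2 at 1.57, Scd1 at 1.46, Scd2 at 1.09 and the malic enzyme gene Me1 at 1.05. For efflux and esterification 3 of 8 genes passed, and Nceh1, a cholesteryl ester hydrolase gene, had a log2 ratio of 1.49. Of 10 isoprenoid branch genes 8 passed, none was 2-fold higher in C10, 1 was in SVEC, and the median was 0.00. That gene was the farnesyltransferase gene Fntb at -1.22, named after its values were seen. Fntb was also low, with a C10 mean of 2.29 CPM and an SVEC mean of 5.33 CPM. More C10 cells had a count of it, 22 against 8 in SVEC. The numbers of genes past 2-fold in these lists stand beside the 19.6% and 18.6% of all genes given above.

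**Figure D4:**
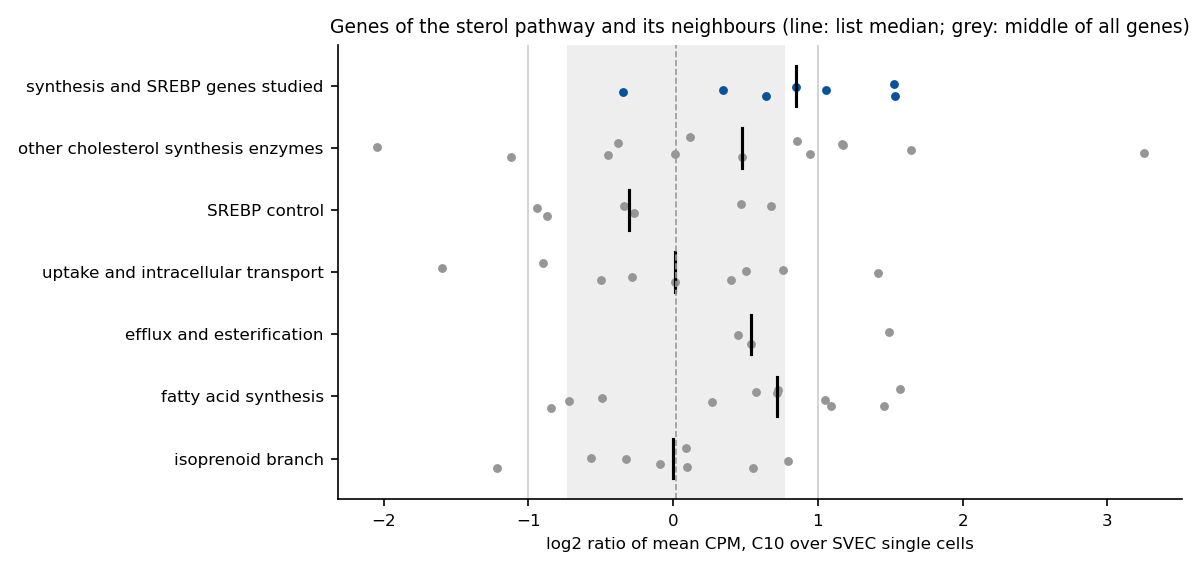
Each point is a gene that passed the filter, placed by the log2 ratio of its mean CPM in C10 over SVEC single cells, with a black line at the median of each list. The grey band spans the middle 50% of all genes around their median of 0.02, thin lines mark 2-fold, and the studied genes have a median of 0.85.

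The C10 input series asked how the genes were recovered from 1, 3 and 10 cells. All 7 were counted in 6 of 6 libraries of 10 cells. A 3-cell library held a median of 6 of the 7 (range 4 to 7) and a 1-cell library a median of 2.5 (range 0 to 5), although the 1-cell libraries had a median of 10157100 counts. Replicates 1 and 9 of the 1-cell libraries had no count of any of the 7. The summed level was 394 CPM ± 358 (SD, n = 8) for 1 cell, 694 CPM ± 672 (SD, n = 6) for 3 cells and 547 CPM ± 203 (SD, n = 6) for 10 cells. In bulk pools, fewer cells that hold a transcript and less RNA per cell cannot be told apart.

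In the mevalonate arm, Hmgcs1 had 0 in 5 of 8 libraries of 1 cell, and its others were 389 CPM in replicate 5, 73.4 CPM in replicate 13 and 0.07 CPM in replicate 6. In 3-cell libraries it ranged from 0 through a median of 0.07 to 146 CPM in replicate 2. In 10-cell libraries it ranged from 25.2 through a median of 37.8 to 122 CPM. The 10-cell libraries were never at 0, while the highest library of 1 cell and the highest of 3 cells lay above all of them.

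Idi1 was counted in 1 of 8 libraries of 1 cell, at 136 CPM in replicate 10. It ranged from 0 through a median of 58.3 to 548 CPM in 3-cell libraries and from 3.68 through a median of 49.1 to 99.1 CPM in 10-cell libraries. Fdps had the lowest coefficient of variation of the 7 genes over 1-cell libraries (1.05) and over 3-cell libraries (0.58), but not over 10-cell libraries. It ranged from 0 through a median of 80.1 to 278 CPM in 1-cell libraries, from 44.4 through 122 to 261 CPM in 3-cell libraries, and from 71.5 through 114 to 272 CPM in 10-cell libraries. The upper ends of the 3 Fdps groups lay close together, and only the 1-cell group reached 0.

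In the sterol arm, Fdft1 ranged from 0 through a median of 4.91 to 172 CPM in 1-cell, from 32.9 through 74.6 to 170 CPM in 3-cell and from 28.4 through 65.4 to 123 CPM in 10-cell libraries. Sqle ranged from 0 through 0.06 to 730.1 CPM, from 6.97 through 77.6 to 727 CPM, and from 66.1 through 104 to 177 CPM in the same order. Cyp51 was counted in 1 of 8 libraries of 1 cell, at 600.3 CPM in replicate 6, in 4 of 6 libraries of 3 cells and in 6 of 6 of 10 cells, where it lay between 1.92 and 211 CPM. For Sqle and Cyp51 the highest library was thus one of few cells, and the 10-cell libraries were the narrowest for Sqle.

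Srebf2 was counted in 1 of 8 libraries of 1 cell, at 3.01 CPM or 36 counts in replicate 10. It ranged from 0.44 through a median of 12.7 to 91.4 CPM in 3-cell libraries and from 5.50 through 17.7 to 35.6 CPM in 10-cell libraries. The 10-cell values lay inside the 3-cell range.

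**Figure D5:**
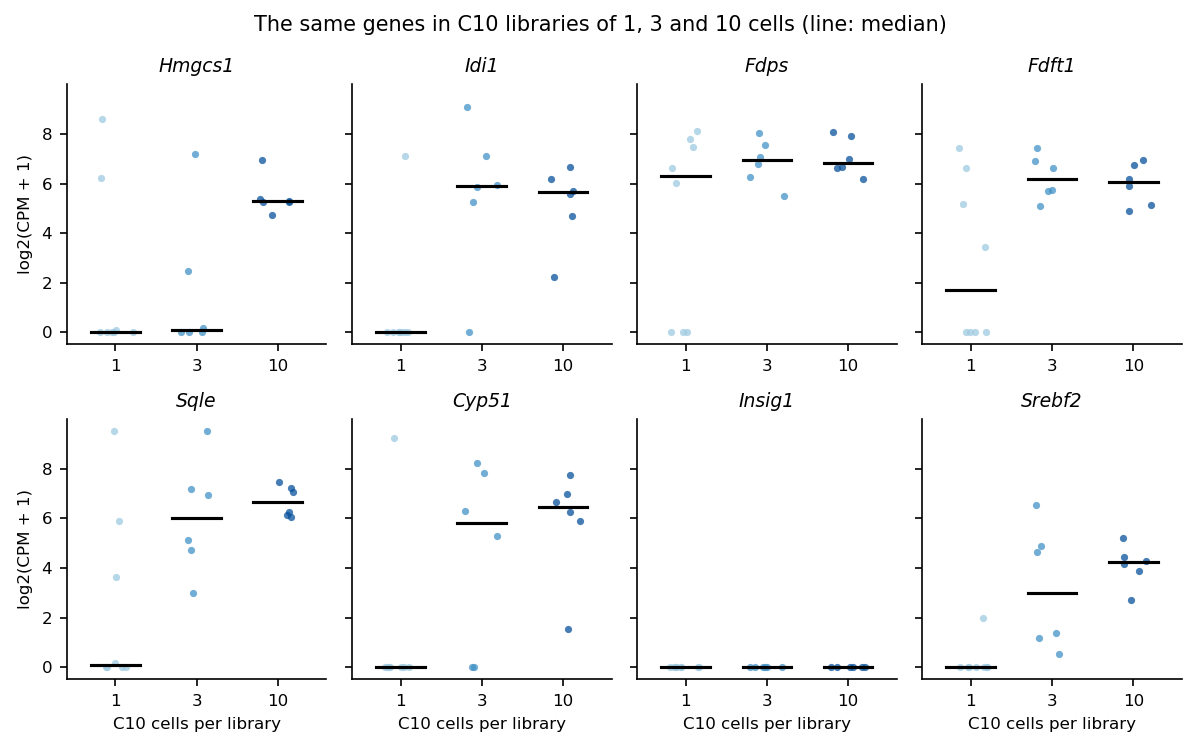
Each point is a C10 library of 1, 3 or 10 cells, the vertical axis is log2(CPM + 1), and the black line is the group median. For the 7 genes with counts, points of 10-cell libraries span a shorter range than those of 3-cell libraries. Srebf2 points span a wider range at 3 cells than at 1 cell. Idi1, Cyp51 and Srebf2 are above 0 in 1 of 8 libraries of 1 cell.

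The median coefficient of variation was lower with more cells, although that of Hmgcs1 was 2.36 over both 1-cell and 3-cell libraries. The coefficient of variation of the 7 genes had a median of 2.55 (range 1.05 to 2.83) over 1-cell libraries, 1.43 (0.58 to 2.36) over 3-cell libraries and 0.55 (0.43 to 0.74) over 10-cell libraries. The ceiling of this measure rises with the number of libraries, and there were more of 1 cell than of 3 or 10. Idi1, Cyp51 and Srebf2, each counted in 1 library of 1 cell, stood at that ceiling, 2.83. Mean levels of 10-cell over 1-cell libraries were at least 2-fold higher for Idi1 (log2 ratio 1.55) and Srebf2 (5.62) and for none at least 2-fold lower, beside 41.2% higher and 12.2% lower among 13372 genes. Both ratios rest on 1 library of 1 cell, replicate 10. Without 1-cell replicate 1 the number was again 2.

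Between 3-cell and 1-cell libraries, Idi1 (log2 ratio 3.04), Srebf2 (6.03) and Fdft1 (1.14) were at least 2-fold higher in 3 cells and Hmgcs1 (-1.21) at least 2-fold lower. The background was 31.9% higher and 17.2% lower of 11177 genes. The Hmgcs1 ratio turned to 1.25 without 1-cell replicate 5, and 2 genes were higher without 1-cell replicate 1. These means share the 1-cell libraries with the comparison before.

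Between 10-cell and 3-cell libraries a test was possible, edgeR's quasi-likelihood test with Benjamini-Hochberg adjustment over 13602 genes, and it called 0 genes (0%) at an adjusted p of 0.05. At an unadjusted p of 0.05 it listed 1592 genes, limma on log2(CPM + 1) called 0, and DESeq2 called 545. None of the 7 was called by edgeR or limma, and DESeq2 called none of the 6 for which it gave an adjusted p, with none given for Hmgcs1. The fitted log2 change of 10 over 3 cells was 0.88 for Hmgcs1 (SE 1.76, edgeR adjusted p = 0.997), -1.62 for Idi1 (SE 1.18, edgeR adjusted p = 0.799) and 0.04 for Fdps (SE 0.50, edgeR adjusted p = 0.997). It was -0.44 for Fdft1 (SE 0.57), -0.77 for Sqle (SE 0.85), -0.30 for Cyp51 (SE 1.39) and -0.50 for Srebf2 (SE 1.19), with edgeR adjusted p from 0.972 to 0.997. Without 3-cell replicate 2 the fitted change was 5.64 for Hmgcs1 and -0.36 for Idi1, and neither was called. With standard errors this wide, a change of 2-fold was not reliably detectable for any of the 7.

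The labels hold C10 single cells and 1-cell input libraries as separate series of the same line. The single cells had higher mean CPM for all 7 genes, although Hmgcs1 turned to a log2 ratio of -0.31 with TMM scaling, with 6 of 7 at least 2-fold higher and none lower, beside 32.0% higher and 24.0% lower among 12303 genes. The log2 ratio was 0.37 for Hmgcs1, 2.54 for Idi1, 1.00 for Fdps, 1.06 for Fdft1, 1.33 for Sqle, 1.36 for Cyp51 and 6.98 for Srebf2. The input means of Idi1, Cyp51 and Srebf2 each rest on 1 library. Fdps and Fdft1 stood at the margin, and 4 of 7 passed without 1-cell replicate 1. With TMM scaling 3 of 7 passed, beside 23.9% of all genes higher and 35.0% lower. There the median of all genes moved to -0.36 on the log2 scale, and 5 of 7 passed relative to that median. Srebf2 was counted in 34 of 46 single cells and 1 of 8 input libraries, at 47.5 CPM ± 80.9 (SD, n = 46) and 0.38 CPM ± 1.06 (SD, n = 8).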

How the data were processed

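The deposited files held whole-number read counts per gene symbol, 1 file per library, with 5 closing counters that were kept out of totals. Full-length SMART-Seq v4 Plus cDNA was read as single reads of 150 bases, per the labels' protocols. FastQC, STAR and HTSeq are named in the submitters' processing notes; versions, genome build, annotation and strand setting are not given in the sources used here. Without molecular identifiers in the protocols, each PCR copy counts as a read. The genes and lists were chosen with earlier results of these data known.

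Counts were scaled to CPM. Single-cell libraries under 1000 counts were left out. Genes entered a comparison when 25% of either group's libraries (single cells) or 50% (input series) had a count. Group means were compared as ratios, with 2-fold as the mark. Shares carry exact Clopper-Pearson intervals. Pools of 10 and 3 cells were tested with edgeR 4.0.16 (TMM, no covariate) at an adjusted p of 0.05; limma 3.58.1 and DESeq2 1.42.0 were alternatives, and the edgeR script was tested on simulated data. Their p-values measure the spread between these libraries, which may be technical, since no separate cultures are named. Exon lengths came from GENCODE, overlaps and promoters from RefSeq GRCm38.p6, which lists 38730 of the 40202 symbols. From each list at most 4 genes were named, those past 2-fold with a count in at least 50% of the higher line's cells, and Scap and Srebf1 always. Some genes that the rule names are not reported here.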

Additional observations from a re-analysis of the deposited data

Results flagged for a closer look

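In groups of 6 or 8 input libraries, the highest library stood apart from the rest by Dixon's gap criterion in 10 of 21 groups of gene and input, where chance flags about 1 in 20 independent groups of normally distributed values. These groups share libraries and hold many zeros, so no chance count applies to them. In 1-cell libraries these were Hmgcs1 at 389 CPM in replicate 5, Idi1 at 136 CPM and Srebf2 at 3.01 CPM in replicate 10, Sqle at 730.1 CPM in replicate 2 and Cyp51 at 600.3 CPM in replicate 6. For Idi1, Cyp51 and Srebf2 the other 7 libraries were at 0, where any value above 0 meets the criterion. In 3-cell libraries, replicate 2 was apart for Hmgcs1 at 146 CPM, Idi1 at 548 CPM and Sqle at 727 CPM, and replicate 9 for Srebf2 at 91.4 CPM. In 10-cell libraries, Hmgcs1 was apart at 122 CPM in replicate 1, against 25.2 to 40.6 CPM in the others.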

How the results depend on the processing

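C10 above SVEC at 2-fold held for 3 of 7 genes as reported, for 6 as a difference of mean log2(CPM + 1), for 5 with TMM scaling, for 4 as a difference of mean log2(CPM + 10), and for 2 with summed counts, with libraries of at least 100000 counts and with libraries drawn to that depth. It held for 2 to 4 with a single cell left out. For 10-cell over 1-cell libraries the count of 2 became 7 as a difference of mean log2(CPM + 1) and 2 to 4 with a library left out. For 3-cell over 1-cell libraries the higher count of 3 became 6 on that scale, and the lower count of 1 became 0 on that scale and with TMM scaling, and 0 to 1 with a library left out. Hmgcs1 there ranged from -5.96 to 1.25. For C10 single cells over 1-cell libraries 6 became 3 with TMM scaling. Between medians Fdft1 alone had a ratio of C10 over SVEC, 1.58 on the log2 scale, because the other SVEC medians were 0. For C10 single cells over 1-cell libraries the log2 median ratios were 0.74 for Fdps, 4.01 for Fdft1 and 11.3 for Sqle, and the other 1-cell medians were 0. The 1-cell medians of Fdft1 and Sqle were 4.91 and 0.06 CPM. Each was the midpoint between 0 and the lowest value above 0, which was 9.81 CPM for Fdft1 and 0.13 CPM for Sqle. Ratios of means of Idi1, Cyp51 and Srebf2 had no value without the only 1-cell library that counted them, nor that of Srebf2 over 1-cell libraries at 100000 counts.

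For 10-cell over 3-cell libraries, none of the 7 genes was called under the alternatives that gave it an adjusted p (DESeq2 gave none for Hmgcs1), but values and signs changed. Hmgcs1 was 8.21 with the replicate number as a block, 3.83 with limma and 0.37 to 5.64 with a library left out, and Idi1 was -0.79, -0.36 and -1.91 to -0.36. Fdps was -0.20 with DESeq2 size factors, -0.20 with DESeq2 and -0.26 to 0.33 with a library left out. With limma on log2(CPM + 1), Sqle was 0.63, Cyp51 1.24 and Srebf2 0.92. With a library left out, Sqle lay between -0.99 and 0.66, Cyp51 between -0.69 and 0.34 and Srebf2 between -0.84 and 0.61. The positive values came without 3-cell replicate 2 for Sqle, without 3-cell replicates 2 and 10 for Cyp51 and without 3-cell replicate 9 for Srebf2. With the replicate number as a block, Sqle was 0.41, Cyp51 1.12 and Srebf2 1.33, 0 genes were called and 1284 had an unadjusted p under 0.05. Same-numbered libraries did not pair: their 6 correlations lay between -0.02 and 0.05. No paired analysis was run for the comparisons of single cells and 1-cell libraries, which were described without a test. Some 1-cell libraries share numbers with the pools, but the labels do not say that these mark a shared culture or day. Over all genes, DESeq2 called 545 and genes in at least 90% of libraries gave 4. The cause of these changes was not tested. Depth limits shares in SVEC, where 3 counts correspond to a median of 6.95 CPM.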

Other observations

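Idi2, a second isomerase gene and the close relative of Idi1, had 0 counts in 116 libraries.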
